A study of Homo sapiens with 24 samples.

Results

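The genes described here encode cytokines, chemokines and their receptors, the secreted signals of immune cells and the surface proteins that read them. They were chosen by symbol: every gene on the array that begins with CCL, CXCL, CXCR or TNFSF, with CCR or IL followed by a digit, or that is TNF, LTA, LTB, CSF1, OSM or LIF, leaving out CXCL10 and IL4I1. The rule found 150 of the 19775 genes named on the array. Of these, 53 had 3 or more arrays with a log2 value of 4 or higher and were tested among the 10971 genes that did, while the other 97 stayed under 4 in all arrays. By role, 6 of 33 chemokines, 7 of 13 ligands of the TNF superfamily, 8 of 41 interleukins and soluble inhibitors, 1 of the 3 cytokines CSF1, OSM and LIF, 7 of 14 chemokine receptors, 23 of 40 interleukin receptors and 1 of 6 noncoding RNAs were tested.

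RNA was measured on 24 Affymetrix arrays, 1 per culture, in 8 groups of 3 biological replicates. MV4-11, a biphenotypic B myelomonocytic leukemia line with an MLL-AF4 rearrangement, grew in IMDM medium for 2, 4 or 6 days with 3 uM EPZ004777 or with the vehicle, 0.1% DMSO. MOLM-13, an acute myeloid leukemia line with an MLL-AF9 rearrangement, grew in RPMI medium for 6 days with the same agent or vehicle. EPZ004777 is a small molecule that inhibits DOT1L, the enzyme that methylates a lysine in the core of histone H3 on transcribed genes, and both fusion proteins draw DOT1L to chromatin. Every group carries its line's fusion, the vehicle cultures included. Line and medium differ together, so they cannot be told apart, and each fusion is represented by 1 line. The labels do not say how the replicates were made, so the p-values measure only the spread between these cultures, pooled over all groups. That spread may be technical.

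Chemokines are small secreted proteins that draw leukocytes along a gradient by acting on G protein coupled receptors. Interleukins and TNF family ligands signal through receptors that feed the JAK and STAT proteins or NF-kappaB, and some are held in check by secreted proteins such as IL1RN, which blocks the IL-1 receptor, and IL18BP, which binds IL-18. Monocytes are known both as sources of TNF, IL1B, CXCL8 and CCL2 and as carriers of CCR2, CXCR4 and the receptors for IL-6 and IL-10.

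All levels below are log2 intensities, and all changes are treated minus vehicle differences of log2 group means within a line and day, given ± the SE that limma's model estimates. A gene was called, and is said to have risen or fallen, where limma's p adjusted over the 10971 genes was under 0.05. The lowest log2 value, 2.19, was shared by all arrays, so a level near it is not measurable and a change to or from it is limited by it. Some probe sets also repeated a higher value exactly in several arrays. Among them were CXCR1 at 4.61, IL17C at 4.33, IL17RC at 5.56, CXCR3 at 5.28 and IL16 at 7.47. Whether such repeated values are limits was not tested. Each gene is given by its probe set of highest mean among those that passed the filter.

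The arrays correlated with the others of their group at 0.989 to 0.998, lowest in treated MV4-11 cells on day 6. The 3' to 5' difference, a sign of RNA quality taken here from control probe sets for ACTB and GAPDH, was 2.10 to 2.84 in treated MOLM-13 arrays against 0.95 to 1.15 in their vehicle arrays. In MV4-11 arrays it was 0.53 to 0.86, apart from replicate 3 of the day 6 treated cultures at 1.91. Of 10 T and NK cell markers 2 passed the filter, NKG7, which averaged 9.97 to 11.30 in every group and made up most of the summed level, and CD3D, while CD3E was at the lowest value in every group. The log2 of their summed level was 11.15 to 11.45 in treated and 10.32 to 10.45 in vehicle MV4-11 arrays on day 6, and 10.66 to 10.86 against 9.995 to 10.20 in MOLM-13 arrays, where CD3D averaged 8.12 and 5.38. Of 8 B cell markers on the array 3 passed, CD79B, PAX5 and FCER2, with MS4A1 at or near the lowest value throughout. FCER2 averaged 3.96 in treated and 6.40 in vehicle MV4-11 arrays on day 4 and 3.70 and 5.39 on day 6, and the log2 of the summed B cell level was 6.33 to 6.78 against 6.55 to 7.38 on day 6, and 6.31 to 6.42 against 5.87 to 6.15 in MOLM-13 arrays. Of 8 dendritic cell markers 4 passed, FLT3, CD83, CLEC10A and FCER1A, with CD1A, LAMP3 and XCR1 at or near the lowest value. Their summed level, mostly that of FLT3, was 11.40 to 11.68 in treated and 12.53 to 12.71 in vehicle MV4-11 arrays on day 6, and 10.14 to 10.41 against 12.03 to 12.36 in MOLM-13 arrays. On day 6 FLT3, CD83 and FCER1A averaged lower in the treated arrays of both lines. CLEC10A averaged higher there, at 9.34 against 9.05 in MV4-11 and 3.66 against 3.25 in MOLM-13 arrays. Of 9 stromal and endothelial markers PECAM1 and COL1A1 passed, and their summed level, mostly that of PECAM1, was 11.49 to 12.05 against 10.74 to 10.96, and 12.70 to 12.77 against 10.91 to 11.17, with CDH5 and LUM at or near the lowest value. COL1A1 went the other way on day 6, averaging 7.17 in treated and 7.41 in vehicle MV4-11 arrays, and 7.03 and 7.36 in MOLM-13 arrays. The monocyte markers LYZ and CSF1R were measured in every group, while CD14 averaged 4.42 in treated MOLM-13 arrays and 2.19 in every other group. Of 7 monocyte and macrophage markers 4 passed, and LYZ made up most of their summed level. The log2 of that sum was 14.89 to 15.28 in treated and 14.20 to 14.24 in vehicle MV4-11 arrays on day 6, and 15.30 to 15.49 against 14.04 to 14.40 in MOLM-13 arrays. In bulk RNA, fewer cells of a type and less RNA per cell cannot be told apart, and the part of these markers and of RNA quality in the changes below was not tested.

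In MV4-11 cells the largest falls were those of the ligands TNF, CCL5 and CCL2 and of the receptor chain IL31RA, and the largest rises were those of IL18BP, IL18 and the receptor chains IL10RA and IL11RA. On day 2, 17 of the 53 genes were called (12.5% of all genes), 13 higher (8.82%) and 4 lower (3.68%). On day 4 it was 36 genes (46.2%), 17 higher (25.2%) and 19 lower (21.0%). On day 6 it was 37 genes (62.0%), 21 higher (33.6%) and 16 lower (28.4%). In MOLM-13 cells 39 were called (65.8%), 26 higher (29.3%) and 13 lower (36.5%), where each percentage is the share of all genes tested. Without MV4-11 day 2 treated replicate 1 the falls of day 2 numbered 2. The median change of the 53 was 0.08, -0.03, 0.03 and 0.37 in these comparisons, against 0.02, 0.01, 0.04 and -0.03 for all genes tested. The shares lay above the background by most on days 2 and 4 and by least in MV4-11 cells on day 6 and in MOLM-13 cells. The day 4 margin depended on the vehicle arrays. It was 67.9% against 46.2% of all genes with those of day 4, and 66.0% against 57.1% with those of days 2 and 6.

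**Figure D1:**
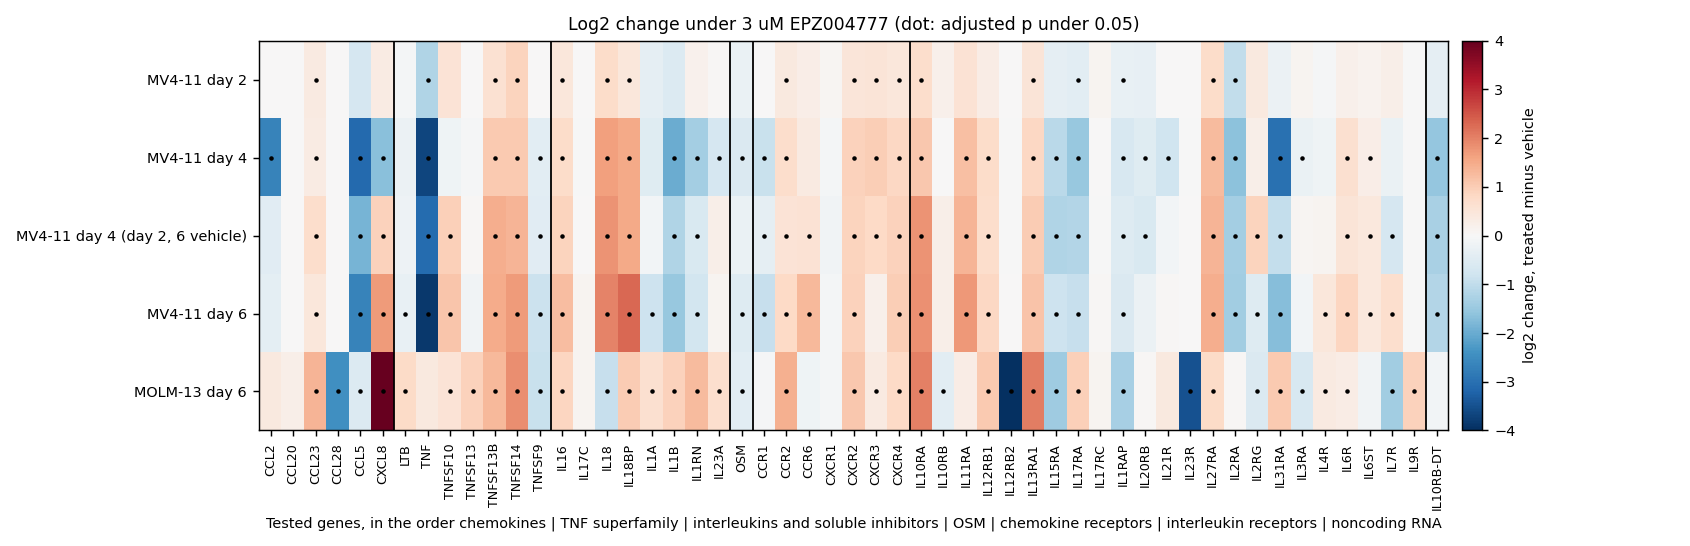
Log2 change, treated minus vehicle, of the 53 tested genes (columns, grouped by role) in 5 comparisons (rows), with a dot where limma's adjusted p was under 0.05 and the color scale limited to 4 in size. TNF and CCL5 are dark blue in MV4-11 cells on days 4 and 6, CXCL8 changes color between the rows, and CXCR2, CXCR4, IL10RA, IL13RA1, TNFSF13B and TNFSF14 are red with a dot in every row.

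Rises shared by every comparison were more common among these genes than falls. Called higher in all 4 comparisons of treated with vehicle cultures were CCL23, CCR2, CXCR2, CXCR4, IL10RA, IL13RA1, IL16, IL18BP, IL27RA, TNFSF13B and TNFSF14, 11 of the 53, as were 3.99% of all genes. Only IL1RAP was called lower in all 4 (1.86% of all genes). In the 3 comparisons of MV4-11 cells IL18 joined the rises (12 genes, against 7.45% of all genes) and IL17RA, IL2RA and TNF joined the falls (4 genes, against 3.04%). CCL20, CXCR1, IL17C and IL17RC were called in none of the 4. CCL20 was at the lowest value in MV4-11 cells, and CXCR1, IL17C and IL17RC each repeated a value in arrays of most groups. The lack of calls may thus reflect a limit of measurement, which was not tested. The treatment effect differed between days 2 and 4 for 17 of the 53 genes (15.0% of all genes), between days 4 and 6 for 16 (25.7%) and between days 2 and 6 for 25 (39.6%). With the 3' to 5' difference as a covariate, a choice made after seeing the data, IL27RA left the rises shared by all 4, and 10 remained (3.71% of all genes).

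TNF, the founding ligand of its family and a main inducer of inflammation, fell more than any other of these genes in MV4-11 cells. Its log2 levels on day 2 were 8.57, 8.26 and 8.30 in the vehicle arrays and 7.42, 7.13 and 6.96 in the treated arrays. By day 4 the treated arrays had gone to 5.69, 5.52 and 5.49, with vehicle arrays at 9.27, 9.11 and 9.33, and by day 6 to 5.66, 4.55 and 4.97, with vehicle at 9.07, 8.90 and 8.74. The groups did not overlap on any day, and the gap on days 4 and 6 was far wider than the spread within either. TNF fell by 1.21 ± 0.21 on day 2 (adjusted p = 0.00072), by 3.67 ± 0.21 on day 4 (4.78e-11) and by 3.84 ± 0.21 on day 6 (1.33e-11). The effect was larger on day 4 than on day 2 by -2.46 ± 0.30 (adjusted p = 1.21e-05), whereas days 4 and 6 differed by -0.17 ± 0.30 (0.715). In MOLM-13 cells, where treated arrays read 9.34, 8.82 and 9.04 and vehicle arrays 9.05, 8.62 and 8.39, the groups overlapped and the change of 0.38 ± 0.21 was not called (0.128).

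CCL5, a chemokine for T cells and monocytes, also fell in MV4-11 cells. On day 2 it read 10.47, 10.31 and 10.01 in vehicle and 9.62, 9.54 and 9.62 in treated arrays, a change of -0.68 ± 0.23 that missed the threshold (adjusted p = 0.0606) although the arrays did not overlap. Of its other probe sets on that day, adjusted over probe sets, one was called (-0.78, adjusted p = 0.0465) and one was not (-0.73, 0.103). On day 4 the treated arrays were close together at 8.81, 8.74 and 8.80, under vehicle arrays at 12.01, 11.67 and 11.95, and CCL5 fell by 3.09 ± 0.23 (1.63e-09). On day 6, with vehicle arrays spread over 11.72, 11.05 and 10.22 and treated arrays at 8.17, 8.21 and 8.55, it fell by 2.68 ± 0.23 (6.2e-09). The wide spread of the day 6 vehicle arrays was on the vehicle side only. In these vehicle arrays CXCL8, IL1B, IL31RA, TNFSF10 and CCL2 had the same order as CCL5, replicate 1 highest and replicate 3 lowest. Other genes, such as OSM and IL18, did not. A shared source of that spread was not tested. In MOLM-13 cells CCL5 fell by 0.56 ± 0.23, from 12.51, 12.76 and 12.68 to 11.98, 12.20 and 12.08 (0.038). That call was lost with the 3' to 5' covariate (-0.93, adjusted p = 0.0919) and without treated replicate 1 or 3 or vehicle replicate 2 or 3, and the adjusted p reached 0.104 over the alternatives.

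IL1B, a secreted cytokine of fever and inflammation made by monocytes, also fell in MV4-11 cells after day 2. Vehicle arrays read 6.13, 6.23 and 6.37 on day 4 and 6.87, 5.74 and 4.95 on day 6, while treated arrays lay between 4.21 and 4.48 on both days. It fell by 2.00 ± 0.36 on day 4 (adjusted p = 0.00014) and by 1.52 ± 0.36 on day 6 (0.00121), and its day 2 change of -0.53 ± 0.36 was not called (0.417). The treated arrays thus sat in a narrow band, several of them at the same 4.27, while the vehicle arrays of day 6 were spread. Whether that value is a limit was not tested. IL1RN, the antagonist that occupies the IL-1 receptor, moved the same way: it fell by 1.36 ± 0.14 on day 4 (1.24e-07) and by 0.73 ± 0.14 on day 6 (0.000123), with vehicle arrays of 8.74, 8.44 and 8.66 and treated arrays of 7.50, 7.23 and 7.02 on day 4. IL1A, which acts on the same receptor as IL1B, was called in MV4-11 cells on day 6 only, where it fell by 0.82 ± 0.27 (0.0133). OSM, a cytokine of the IL-6 family, fell by 0.56 ± 0.14 on day 4 (0.00232) and by 0.52 ± 0.14 on day 6 (0.00319).

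CXCL8, the main chemokine for neutrophils, changed direction between days. Its day 2 levels overlapped, at 6.54, 6.15 and 6.25 in vehicle and 6.27, 6.90 and 6.74 in treated arrays. On day 4 vehicle arrays stood at 9.33, 8.97 and 9.26 and treated arrays at 7.52, 7.40 and 7.58, a fall by 1.68 ± 0.27 (adjusted p = 3.79e-05). On day 6 the order turned, with 7.38, 6.97 and 6.20 in vehicle and 8.58, 8.78 and 8.30 in treated arrays, a rise of 1.70 ± 0.27 (1.94e-05). Read along the treated arrays alone, CXCL8 was higher on day 6 than on day 4 and higher on day 4 than on day 2, while the vehicle arrays were highest on day 4. In MOLM-13 cells CXCL8 had the largest rise of these genes, 4.12 ± 0.27 (1.67e-10), from 7.38, 6.44 and 6.15 to 10.74, 10.77 and 10.83. The gene's other probe set gave the same directions, -2.16 on day 4, 0.82 on day 6 (adjusted p = 0.19) and 2.77 in MOLM-13 cells, so the day 6 rise was not called there.

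CCL2, which draws monocytes through CCR2, differed between the groups on day 4 only. Vehicle arrays of that day were at 7.14, 6.37 and 7.22, and treated arrays at 4.47, 3.83 and 4.45, a fall by 2.66 ± 0.31 (adjusted p = 8.83e-07). All other MV4-11 arrays lay between 4.27 and 4.75 apart from a day 6 vehicle array at 5.99. The treated arrays of day 4 were thus at the level of the other days, and the vehicle arrays were above it. The value 4.47 recurred exactly in arrays of several groups, and whether that level is a limit was not tested.

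**Figure D2:**
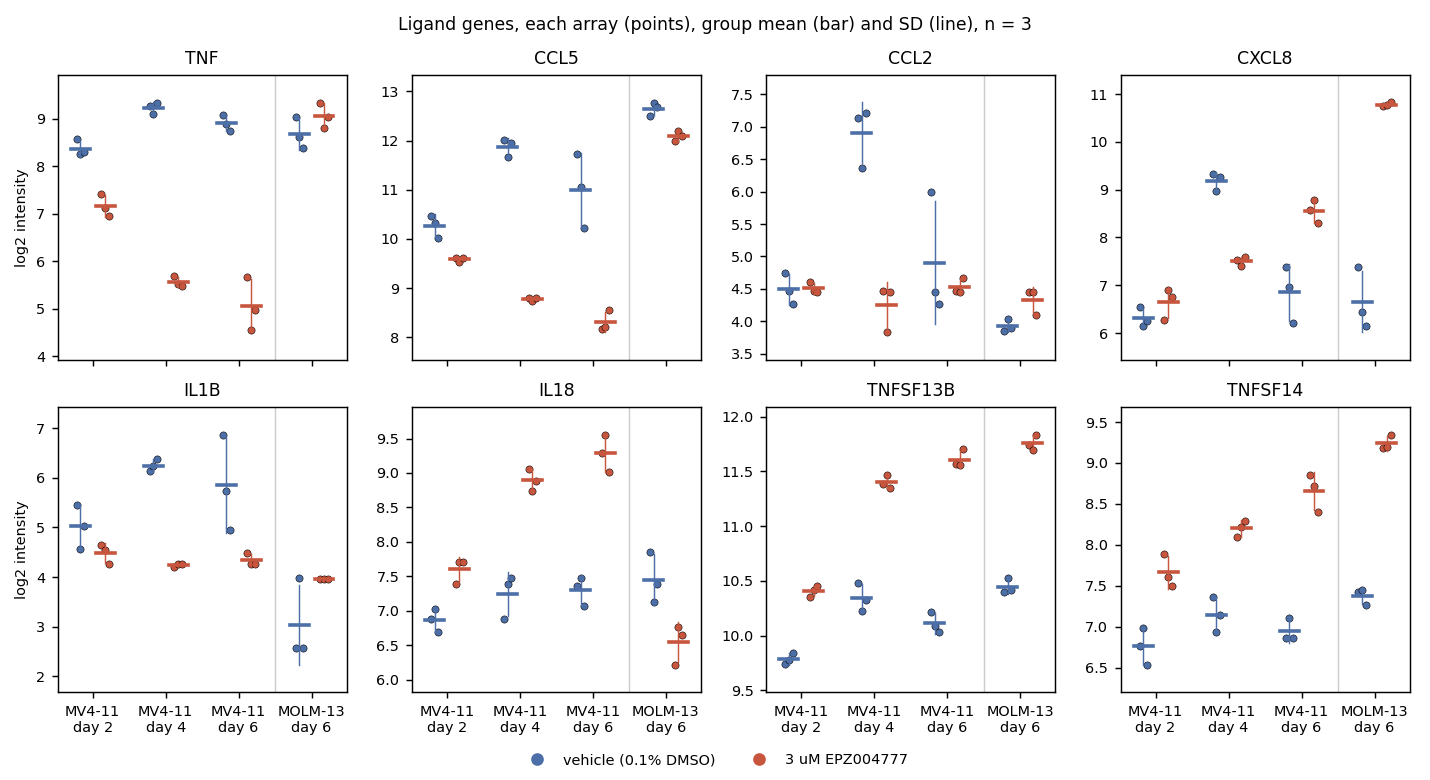
Log2 intensity of 8 ligand genes in each array (points), with group mean (bar) and SD (line), n = 3, vehicle in blue and 3 uM EPZ004777 in red. TNF averages 5.06 in treated and 8.91 in vehicle MV4-11 arrays on day 6, and the groups overlap in MOLM-13 cells; within MV4-11 cells CCL2 and CXCL8 are highest in the day 4 vehicle arrays, and TNFSF13B and TNFSF14 are higher in all treated groups than in their vehicle groups.

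Because TNF and CXCL8 both fell against day 4 vehicle and went opposite ways on day 6, the bases upstream of both are shown, although against the other vehicle arrays CXCL8 was higher on day 4 by 0.92 while TNF stayed lower. The windows hold 250 bases before each RefSeq start on GRCh38.p14, 5' to 3' on the strand of the gene. Capitals mark matches to motifs searched on both strands: TATAAA in both, and in CXCL8 also TGANTCA (of the AP-1 type) and GGAATTTCC (of the NF-kappaB type). The windows are chr6:31575315-31575564 on the plus strand and chr4:73740319-73740568 on the plus strand.
TNF: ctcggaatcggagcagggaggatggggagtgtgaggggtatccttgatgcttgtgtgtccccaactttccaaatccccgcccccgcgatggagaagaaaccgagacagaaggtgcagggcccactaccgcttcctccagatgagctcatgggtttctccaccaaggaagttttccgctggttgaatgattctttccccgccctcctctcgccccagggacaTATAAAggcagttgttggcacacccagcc
CXCL8: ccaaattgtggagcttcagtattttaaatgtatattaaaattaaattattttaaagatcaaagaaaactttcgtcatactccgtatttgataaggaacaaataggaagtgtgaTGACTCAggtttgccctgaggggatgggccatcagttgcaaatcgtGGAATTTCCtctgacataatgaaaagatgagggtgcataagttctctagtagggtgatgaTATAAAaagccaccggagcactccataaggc
TATAAA begins at -29 in TNF and at -31 in CXCL8, counted from the start site, while in CXCL8 TGACTCA begins at -137 and GGAATTTCC at -91. A match is a description of letters, not of binding, and the longer of the NF-kappaB type motifs can contain GGAATTTCC. Over the 35116 promoter windows of the table, which also hold 50 bases after the start, TATAAA occurred in 11.5% and in 12 of the 45 windows found for the 53 genes (26.7%). TGANTCA occurred in 7.71% of all windows and in 9 of the 45 (20%), GGAATTTCC in 0.461% and in 1 of them, CXCL8. A longer NF-kappaB type motif occurred in 0.558% and in 2 of them, IL27RA and LTB, and an interferon response type motif in 3.57% and in 5.

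Several ligands rose in both lines. TNFSF14, a T cell costimulator also known as LIGHT, had vehicle arrays between 6.54 and 7.37 over the 3 days in MV4-11 cells. Its treated arrays were 7.89, 7.61 and 7.50 on day 2, 8.09, 8.22 and 8.29 on day 4 and 8.85, 8.72 and 8.40 on day 6, all above the vehicle arrays. TNFSF14 rose by 0.91 ± 0.13 (adjusted p = 0.000113), 1.06 ± 0.13 (2.32e-06) and 1.71 ± 0.13 (1.78e-09) on the 3 days, and by 1.86 ± 0.13 in MOLM-13 cells (5.52e-10), where arrays went from 7.42, 7.45 and 7.27 to 9.18, 9.20 and 9.35. The effects of the lines on day 6 differed by 0.15 ± 0.19 (0.521). TNFSF13B, the B cell survival factor BAFF, rose by 0.62 ± 0.07 (4.14e-06), 1.06 ± 0.07 (3.12e-10) and 1.50 ± 0.07 (9.55e-13) in MV4-11 cells and by 1.31 ± 0.07 in MOLM-13 cells (7.41e-12). Its effect was larger on each later day, by 0.43 ± 0.10 from day 2 to day 4 (0.00469) and by 0.44 ± 0.10 from day 4 to day 6 (0.00356).

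IL18, a cytokine that drives interferon gamma production, and IL18BP, the secreted protein that neutralises it, both rose in MV4-11 cells. IL18 went from 7.36, 7.48 and 7.07 in vehicle to 9.29, 9.56 and 9.02 in treated arrays on day 6, and IL18BP from 6.30, 6.25 and 6.49 to 8.56, 8.76 and 8.65. The rises of IL18 were 0.73 ± 0.19 on day 2 (adjusted p = 0.0165), 1.65 ± 0.19 on day 4 (9.8e-07) and 1.99 ± 0.19 on day 6 (4.21e-08). IL18BP rose by 0.47 ± 0.13 (0.0188), 1.53 ± 0.13 (7.6e-09) and 2.31 ± 0.13 (1.09e-11), by more on each later day (1.06 ± 0.18 and 0.78 ± 0.18). The day 2 call of IL18 was lost without treated replicate 2 or 3 or vehicle replicate 3, and that of IL18BP without treated replicate 1 or vehicle replicate 2 or 3. In MOLM-13 cells the pair parted: IL18BP rose by 1.01 ± 0.13 (8.76e-07), while IL18 fell by 0.91 ± 0.19 (0.000422), from 7.85, 7.12 and 7.38 to 6.22, 6.77 and 6.65. With the 3' to 5' covariate the change of IL18 there was -0.93 and no longer called (0.0558). A second, dimmer probe set of IL18BP changed by -0.06 to 0.10 in the 4 comparisons and was not called in any.

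IL16, a chemoattractant for CD4 cells cut from a larger precursor, rose by 0.45 ± 0.09, 0.73 ± 0.09 and 1.24 ± 0.09 on the 3 days and by 0.85 ± 0.09 in MOLM-13 cells. Its MV4-11 day 6 vehicle arrays all read the same 7.47, and whether that value is a limit was not tested. CCL23, a chemokine of myeloid cells that acts on CCR1, rose by 0.36 ± 0.08, 0.32 ± 0.08 and 0.46 ± 0.08 in MV4-11 cells and by 1.36 ± 0.08 in MOLM-13 cells (adjusted p = 4.88e-11), where treated arrays read 10.36, 10.20 and 10.32 against 8.91, 9.03 and 8.87. The rise of CCL23 was larger in MOLM-13 cells by 0.89 ± 0.12 (3.24e-06). TNFSF10, the death ligand TRAIL, rose on day 6 in MV4-11 cells by 1.11 ± 0.19 (4.06e-05), with treated arrays at 8.45, 8.47 and 8.55 and vehicle arrays at 8.10, 7.14 and 6.91, a call that its other probe set did not give (adjusted p = 0.248). TNFSF9, the T cell costimulator 4-1BBL, went the other way, falling by 0.87 ± 0.12 in MV4-11 cells (4.95e-06) and by 0.88 ± 0.12 in MOLM-13 cells (3.77e-06) on day 6. LTB and TNFSF13, the lymphotoxin beta and APRIL genes, rose in MOLM-13 cells by 0.76 ± 0.11 and 0.92 ± 0.06, and the day 6 effects of the lines differed by 1.06 ± 0.16 and 1.06 ± 0.09. Probe sets listed for both TNFSF13 and TNFSF12-TNFSF13 were not tested. They averaged 10.06, 8.68 and 8.44 in treated and 9.23, 8.74 and 8.30 in vehicle MOLM-13 arrays. On day 6 in MV4-11 arrays they averaged 9.12, 8.45 and 8.05 against 9.33, 9.08 and 8.57. The fall of LTB in MV4-11 cells on day 6 was no longer called without treated replicate 2 or vehicle replicate 1, nor was the day 4 fall of TNFSF9 without vehicle replicate 2.

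The day 4 comparison depended on its vehicle arrays. Against the mean of the day 2 and day 6 vehicle arrays, day 4 vehicle arrays were themselves called higher for 17 of the 53 genes (13.4% of all genes) and lower for 1, IL7R (15.2%), 18 in all (28.6%). The largest of these differences were in CXCL8 (2.61 ± 0.23), CCL2 (2.21 ± 0.27), IL31RA (2.01 ± 0.21), CCL5 (1.25 ± 0.20) and TNFSF10 (1.11 ± 0.16). In each of these genes the day 6 vehicle arrays were themselves spread, with replicate 1 highest and replicate 3 lowest. The part of that spread in the comparisons below was not tested. When the day 4 treated arrays were set against the day 2 and day 6 vehicle arrays, 35 genes were called (57.1% of all genes), 21 higher (29.1%) and 14 lower (28.0%). Both sets share the treated arrays, and their values are given side by side. Called lower with both were 13 genes (16.3% of all genes): CCL5, CCR1, IL10RB-DT, IL15RA, IL17RA, IL1B, IL1RAP, IL1RN, IL20RB, IL2RA, IL31RA, TNF and TNFSF9. Called higher with both were 17 (21.5%), which included all 12 that rose on every day.

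For TNF the change was -3.67 ± 0.21 with the day 4 vehicle arrays and -3.07 ± 0.18 with the others, so most of its size remained. For CCL5 it was -3.09 ± 0.23 and -1.85 ± 0.20, for IL31RA -2.98 ± 0.24 and -0.96 ± 0.21, and for IL1B -2.00 ± 0.36 and -1.19 ± 0.31. CCL2, CXCL8, IL21R, IL23A, IL3RA and OSM were called lower against day 4 vehicle and not against the others, 6 genes, as were 4.69% of all genes. Among these CXCL8 turned to a rise of 0.92 ± 0.23 (adjusted p = 0.00227), and CCL2 gave -0.45 ± 0.27 (0.165). TNFSF10 and IL2RG, with changes of -0.18 ± 0.19 and 0.25 ± 0.16 against day 4 vehicle, were higher by 0.94 ± 0.16 and 0.89 ± 0.14 against the others. The rises of IL18BP (1.53 and 1.51), IL27RA (1.25 and 1.35) and CXCR4 (0.84 and 0.91) were nearly the same with either set.

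**Figure D3:**
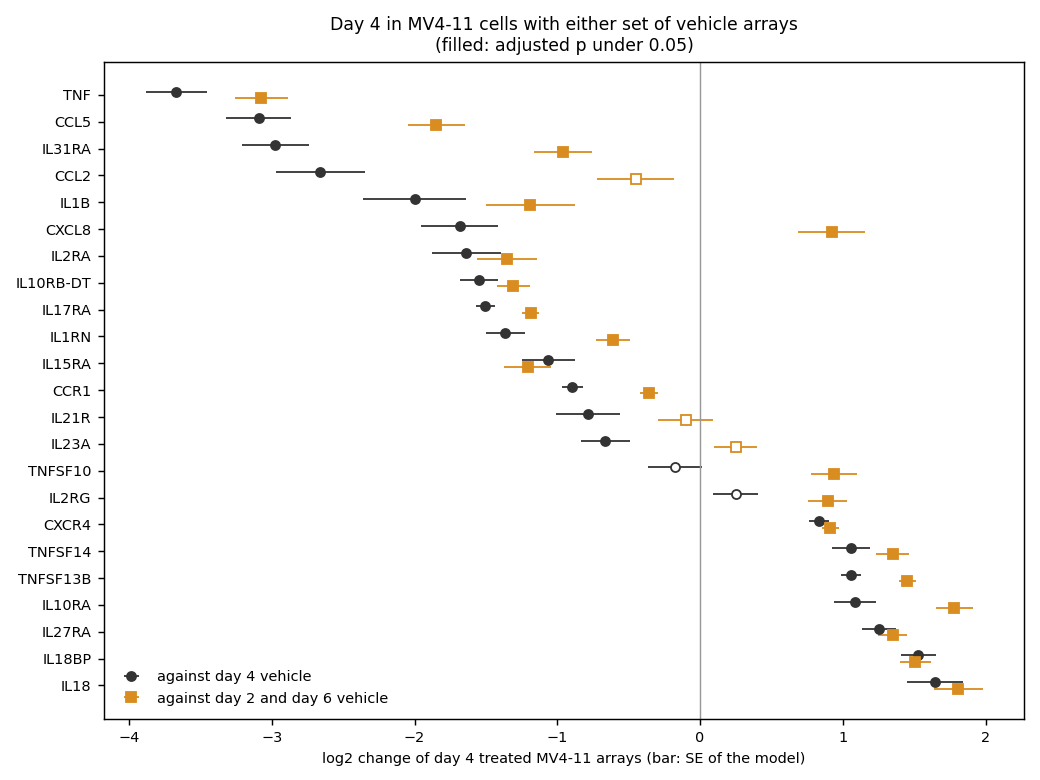
Log2 change of the day 4 treated MV4-11 arrays against the day 4 vehicle arrays (black circles) and against the mean of the day 2 and day 6 vehicle arrays (orange squares) for 23 genes, with the SE of the model, filled where limma's adjusted p was under 0.05. CXCL8 lies at -1.68 with one set and at 0.92 with the other, CCL2 at -2.66 and -0.45, and TNF below -3 with both.

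Of the 7 chemokine receptors tested, CCR2, CXCR2 and CXCR4 rose in all 4 comparisons, and CCR1 fell in MV4-11 cells on days 4 and 6. CXCR4, the receptor for CXCL12 that holds cells in bone marrow, read 12.40, 12.32 and 12.38 in vehicle and 13.30, 13.38 and 13.35 in treated MV4-11 arrays on day 6. It rose by 0.47 ± 0.07, 0.84 ± 0.07 and 0.98 ± 0.07 on the 3 days (adjusted p = 0.000135, 9.36e-09 and 4.93e-10) and by 0.80 ± 0.07 in MOLM-13 cells (7.58e-09). CCR2, the monocyte receptor for CCL2, rose by 0.40 ± 0.09, 0.71 ± 0.09 and 0.78 ± 0.09, and in MOLM-13 cells by 1.42 ± 0.09 (4.98e-11), from 10.51, 10.82 and 10.50 to 12.08, 11.92 and 12.10. CXCR2, a receptor for CXCL8, rose by 0.47 ± 0.09, 0.94 ± 0.09, 0.91 ± 0.09 and 1.08 ± 0.09 in the same order. In all 4 comparisons the treated arrays of these 3 receptors did not overlap their vehicle arrays, as was so for 38.9%, 59.1%, 64.8% and 68.3% of all genes.

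Other probe sets of CXCR4 and CCR2 gave lower changes on day 6 in both lines. The pair of dimmer CXCR4 probe sets changed by 1.24 and 1.25 on day 4, by 0.33 and 0.19 on day 6 and by -0.39 and -0.84 in MOLM-13 cells. For CCR2 the second probe set changed by 1.05 on day 4, -0.53 on day 6 and -1.07 in MOLM-13 cells. On day 4, where the 3' to 5' differences of the groups were close, the probe sets of both genes moved the same way. The place of these probe sets along the transcripts was not examined, and the part of RNA quality in their disagreement was not tested.

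CCR1, a receptor for CCL5 and CCL23, went from 10.80, 10.72 and 10.57 to 9.74, 9.84 and 9.72 on day 6 in MV4-11 cells. It fell by 0.89 ± 0.08 on day 4 (adjusted p = 1.03e-08) and by 0.93 ± 0.08 on day 6 (2.92e-09), and its changes on day 2 (0.02 ± 0.08) and in MOLM-13 cells (-0.06 ± 0.08) were not called. CXCR3, a chemokine receptor of T cells, rose on day 4 by 0.98 ± 0.14 (9.4e-06), and its calls on day 2 (0.50 ± 0.14) and in MOLM-13 cells (0.35 ± 0.14) were lost without any 1 of the arrays compared, apart from day 2 treated replicate 2 and MOLM-13 vehicle replicate 3. CCR6, a receptor for CCL20, rose on day 6 by 1.30 ± 0.27 (0.000297), to 4.16, 4.87 and 4.95 from vehicle arrays under 4. CCR6 reached 4 in treated MV4-11 arrays only, so it passed the filter through groups where it was high. Its test is not independent of that filter. CXCR1, the other receptor for CXCL8, stayed between 4.34 and 5.08 in all arrays.

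Among the 23 interleukin receptors, 3 rose and 3 fell on day 2, 7 rose and 8 fell on day 4, 9 rose and 6 fell on day 6, and 9 rose and 8 fell in MOLM-13 cells. The shares called were 26.1%, 65.2%, 65.2% and 73.9%, against 12.5%, 46.2%, 62.0% and 65.8% of all genes, so that of day 6 was near the background. IL10RA, the ligand-binding chain of the receptor for the anti-inflammatory IL-10, read 7.09, 7.45 and 7.19 in vehicle and 8.88, 8.98 and 9.38 in treated MV4-11 arrays on day 6. In MOLM-13 cells it read 6.03, 6.65 and 6.70 and then 8.46, 8.50 and 8.52, again with no overlap. The rises were 0.72 ± 0.15 (adjusted p = 0.00277), 1.09 ± 0.15 (5.73e-06), 1.84 ± 0.15 (2.72e-09) and 2.03 ± 0.15 (7.04e-10) in the 4 comparisons. IL10RB, the signaling chain shared with other receptors, changed by 0.21, 0.03 and 0.25 in MV4-11 cells with no call, and fell by 0.43 ± 0.12 in MOLM-13 cells (0.00345), where the covariate gave 0.05 (0.84).

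IL13RA1, a chain of the receptors for IL-4 and IL-13, rose by 0.52 ± 0.08, 0.84 ± 0.08 and 1.15 ± 0.08 on the 3 days. Its rise in MOLM-13 cells, 2.03 ± 0.08 (adjusted p = 1.58e-13), from 9.26, 9.16 and 9.29 to 11.17, 11.38 and 11.26, was larger than that of day 6 in MV4-11 cells by 0.88 ± 0.12 (5.76e-06). Of its 3 other probe sets, all were below 0 on day 6 in MV4-11 cells, at -0.23, -1.02 and -0.49, and in MOLM-13 cells 2 rose (1.69 and 1.64) and 1 changed by -0.35. IL27RA, the receptor chain for IL-27, rose by 0.72 ± 0.12, 1.25 ± 0.12 and 1.45 ± 0.12 in MV4-11 cells, from 7.75, 7.75 and 7.33 to 9.03, 8.97 and 9.17 on day 6, and by 0.76 ± 0.12 in MOLM-13 cells. IL11RA, the receptor chain for IL-11, rose in MV4-11 cells by 1.19 ± 0.19 on day 4 (3.6e-05) and 1.72 ± 0.19 on day 6 (2.16e-07) and changed by 0.29 ± 0.19 in MOLM-13 cells (0.187). IL6R, the receptor chain for IL-6, rose by 0.65 ± 0.08 on day 4 and 0.85 ± 0.08 on day 6, and by 0.31 ± 0.08 in MOLM-13 cells. A dim probe set of IL6R fell in the latter (-2.33, adjusted p = 9.83e-07). IL12RB1, a chain of the receptors for IL-12 and IL-23, rose by 0.75 ± 0.17 on day 4, 0.81 ± 0.17 on day 6 and 1.06 ± 0.17 in MOLM-13 cells.

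The upstream bases of 3 genes that rose in all 4 comparisons are shown because a searched motif lies there, drawn as above. The windows are chr19:6670161-6670410 on the minus strand for TNFSF14, chr11:117989695-117989944 on the plus strand for IL10RA and chr19:14031512-14031761 on the plus strand for IL27RA. For TNFSF14 and IL10RA the start used in the table lies inside the outermost span RefSeq gives the gene, so these windows lie within that span.
TNFSF14: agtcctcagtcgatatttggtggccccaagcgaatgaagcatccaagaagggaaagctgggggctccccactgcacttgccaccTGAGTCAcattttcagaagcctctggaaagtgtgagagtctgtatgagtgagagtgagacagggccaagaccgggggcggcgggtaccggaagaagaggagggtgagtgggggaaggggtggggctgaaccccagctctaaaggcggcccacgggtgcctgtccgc
IL10RA: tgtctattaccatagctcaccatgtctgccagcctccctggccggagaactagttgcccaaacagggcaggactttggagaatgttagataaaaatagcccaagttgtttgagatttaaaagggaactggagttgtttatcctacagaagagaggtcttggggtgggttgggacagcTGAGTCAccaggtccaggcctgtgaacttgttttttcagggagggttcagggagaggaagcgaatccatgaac
IL27RA: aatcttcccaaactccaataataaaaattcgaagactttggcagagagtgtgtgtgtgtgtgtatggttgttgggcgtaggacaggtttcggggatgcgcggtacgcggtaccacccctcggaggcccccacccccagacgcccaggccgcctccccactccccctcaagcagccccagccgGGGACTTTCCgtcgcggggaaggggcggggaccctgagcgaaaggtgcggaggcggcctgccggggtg
Capitals mark TGAGTCA, a form of TGANTCA, at -166 in TNFSF14 and at -73 in IL10RA, and GGGACTTTCC, a match to the longer NF-kappaB type motif, at -68 in IL27RA. CCR2, another gene that rose throughout, has TGACTCA at -212.

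In MV4-11 cells IL17RA, IL31RA, IL2RA, IL15RA and IL1RAP fell on both day 4 and day 6, and IL20RB, IL21R and IL3RA were called lower on day 4 alone. IL20RB was under 4 in all day 4 arrays, at 3.10, 3.16 and 3.80 in treated and 3.80, 3.95 and 3.80 in vehicle arrays. The value 3.80 recurred exactly in both groups, and whether it is a limit was not tested. IL17RA, the common chain of the receptors for IL-17, fell by 0.43 ± 0.07, 1.50 ± 0.07 and 0.93 ± 0.07 on the 3 days (adjusted p = 0.000249, 1.57e-12 and 7.73e-10). Its treated arrays read 9.80, 9.93 and 10.00 on day 4 and 10.19, 10.26 and 10.28 on day 6, against vehicle arrays of 11.47, 11.31 and 11.47 and of 11.17, 11.13 and 11.23. Against the vehicle arrays of the same day the fall was thus deepest on day 4, and day 6 differed from it by 0.57 ± 0.10 (0.00043). The day 4 vehicle arrays of IL17RA were themselves called higher than the others, averaging 11.42 against 11.02 on day 2 and 11.18 on day 6. Their part in this difference was not tested. IL31RA, a monocyte receptor chain for IL-31, fell by 2.98 ± 0.24 on day 4 (4.66e-09), from 8.77, 8.46 and 9.28 to 5.73, 6.13 and 5.73, and by 1.69 ± 0.24 on day 6 (4.3e-06). IL2RA, the high-affinity chain of the IL-2 receptor, fell by 0.98 ± 0.24, 1.64 ± 0.24 and 1.39 ± 0.24, with treated arrays between 3.41 and 4.50, low in the range, and its day 2 call was lost without treated replicate 1 or vehicle replicate 2. IL15RA, which presents IL-15, fell by 1.06 ± 0.19 on day 4, 0.84 ± 0.19 on day 6 and 1.41 ± 0.19 in MOLM-13 cells (1.94e-06).

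IL1RAP, the accessory chain that IL-1 receptors need to signal, was the gene that fell in all 4 comparisons. It fell by 0.30 ± 0.09, 0.63 ± 0.09 and 0.59 ± 0.09 in MV4-11 cells, and by 1.33 ± 0.09 in MOLM-13 cells (adjusted p = 4.37e-10), from 8.91, 8.81 and 8.49 to 7.33, 7.53 and 7.38. The day 2 call (0.0433) was lost without any 1 of the day 2 arrays apart from vehicle replicate 2, and the adjusted p reached 0.16 over the alternatives. IL2RG, the chain shared by receptors for IL-2, IL-4, IL-7 and IL-15, fell on day 6 in both lines, by 0.52 ± 0.16 (0.00789) and 0.58 ± 0.16 (0.00369). Both of these calls were lost with the 3' to 5' covariate, and that in MV4-11 cells also without vehicle replicate 1. IL10RB-DT, a noncoding RNA transcribed divergently from IL10RB, fell by 1.55 ± 0.13 on day 4 (1.35e-08) and 1.16 ± 0.13 on day 6 (3.49e-07) in MV4-11 cells.

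**Figure D4:**
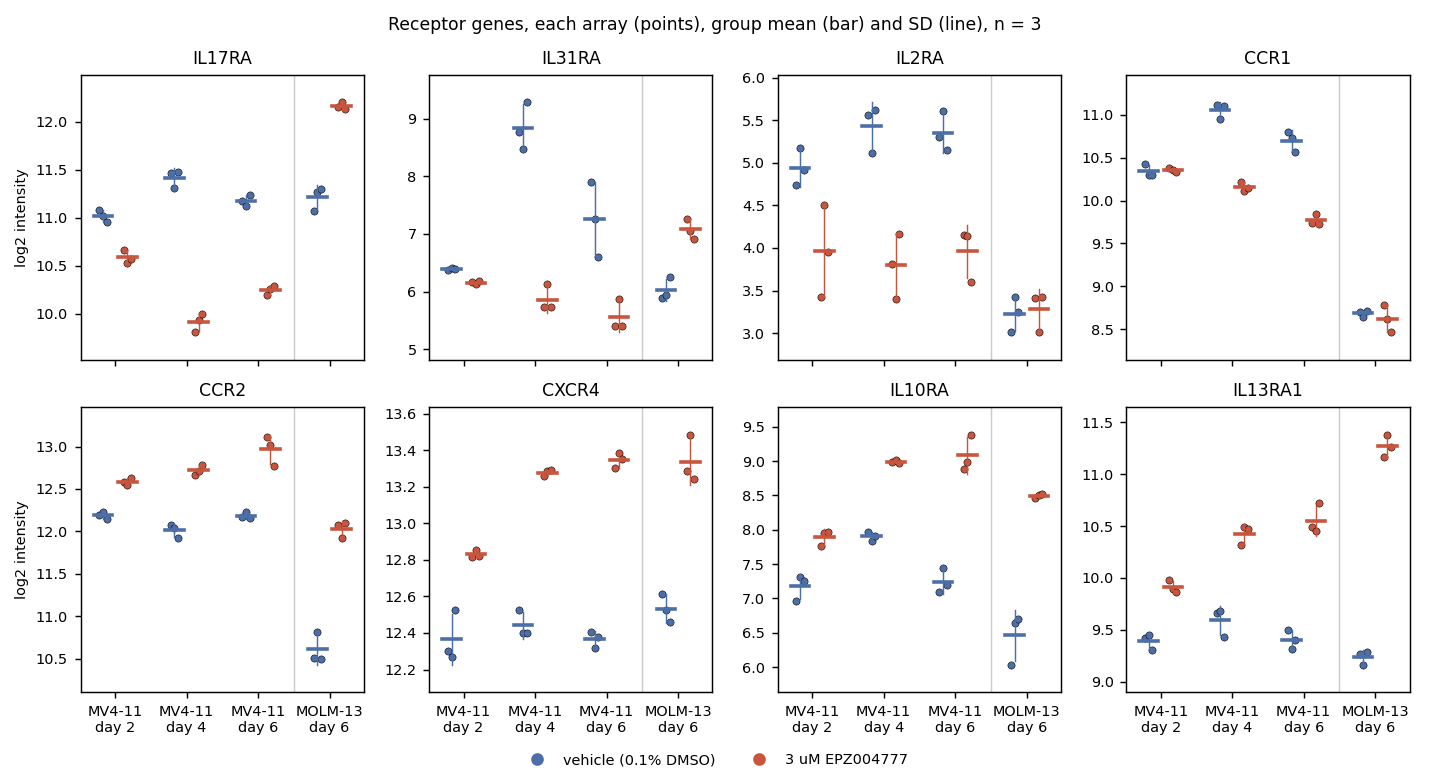
Log2 intensity of 8 receptor genes in each array (points), with group mean (bar) and SD (line), n = 3, vehicle in blue and 3 uM EPZ004777 in red. IL17RA and IL31RA are lower in treated MV4-11 arrays and higher in treated MOLM-13 arrays on day 6, CCR1 and IL2RA are lower in treated MV4-11 arrays on that day, and CCR2, CXCR4, IL10RA and IL13RA1 are higher in the treated arrays of both lines.

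In MOLM-13 cells several of the genes that fell in MV4-11 cells were higher under the inhibitor. On day 6, 30 of the 53 genes were called in both lines (43.3% of all genes): 16 higher in both (16.7%), 6 lower in both (18.7%) and 8 in opposite directions (7.76%). The 6 lower in both were CCL5, IL15RA, IL1RAP, IL2RG, OSM and TNFSF9, of which OSM lost its MOLM-13 call without treated replicate 2 or vehicle replicate 3. Higher in MOLM-13 and lower in MV4-11 cells were IL17RA, IL1A, IL1B, IL1RN, IL31RA and LTB, and the reverse held for IL18 and IL7R. The difference between the lines' effects was called for 32 of the 53 (52.0% of all genes). With the 3' to 5' covariate, 12, 3 and 5 genes remained in these classes (10.1%, 10.7% and 4.25% of all genes), and IL17RA, IL1RN, IL31RA, IL7R and LTB were the 5 with opposite directions. Without replicate 3 of the treated MV4-11 cultures of day 6 the classes held 16, 6 and 9 genes (16.2%, 17.5% and 9.06%).

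IL17RA rose in MOLM-13 cells by 0.95 ± 0.07 (adjusted p = 6.58e-10), from 11.07, 11.27 and 11.30 to 12.15, 12.20 and 12.13, and differed from its MV4-11 effect by 1.88 ± 0.10 (9.85e-12). IL31RA rose by 1.05 ± 0.24 (0.000696), from 5.89, 5.95 and 6.26 to 7.26, 7.06 and 6.92, and IL1RN by 1.26 ± 0.14 (1.59e-07), from 8.43, 8.78 and 8.63 to 9.95, 9.87 and 9.80. A pair of dimmer IL1RN probe sets changed by -0.12 and -0.38 there, with no call. The largest difference between the lines among these genes was that of TNF, 4.22 ± 0.30 (1.28e-09), which was not called in MOLM-13 cells. IL1B was under 4 in all MOLM-13 arrays, at 3.96, 3.97 and 3.97 in treated and 2.57, 3.97 and 2.57 in vehicle arrays. Its call there (0.93 ± 0.36, 0.0304) was lost without any 1 of these arrays apart from vehicle replicate 2. IL7R, the receptor chain for IL-7, fell in MOLM-13 cells by 1.38 ± 0.13 (2.25e-08), from 6.27, 6.64 and 6.50 to 5.03, 5.12 and 5.12, and rose in MV4-11 cells by 0.67 ± 0.13 (0.000171).

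**Figure D5:**
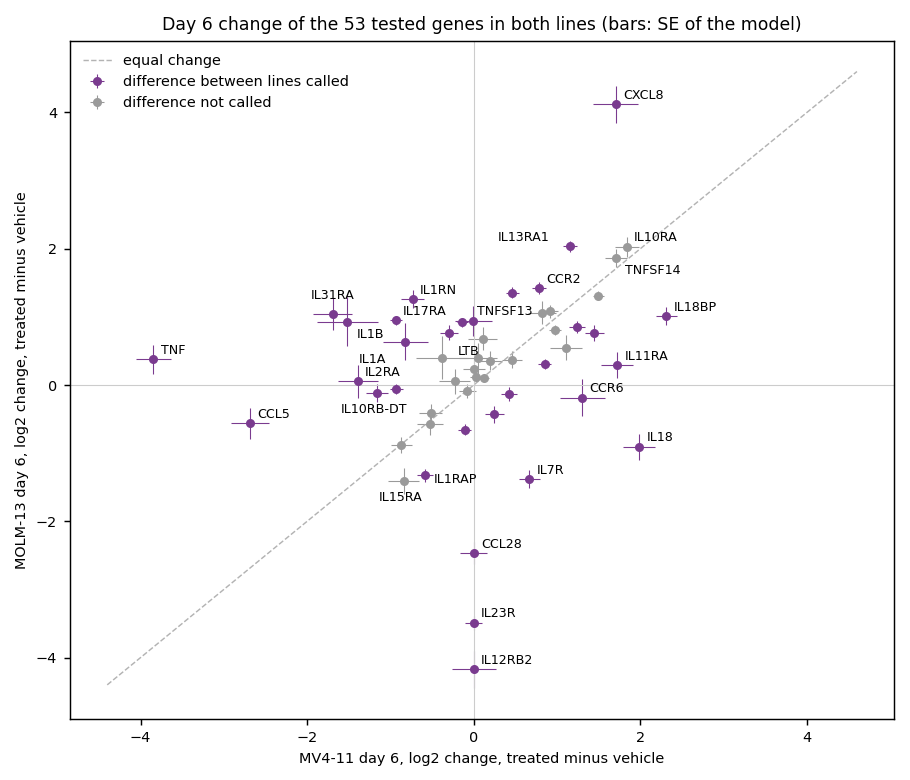
Log2 change, treated minus vehicle, on day 6 in MV4-11 cells (horizontal) and MOLM-13 cells (vertical) for the 53 tested genes, with the SE of the model, purple where the difference between the lines was called and grey where it was not. TNF lies at -3.84 and 0.38 and CXCL8 at 1.70 and 4.12, while CCL28, IL12RB2 and IL23R lie on the vertical zero line, since they stay near the lowest value in MV4-11 cells.

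A few genes were measurable in 1 line only. CCL20, CCL28, IL12RB2, IL23R and IL9R were under 4 in every MV4-11 array, and CCR6, IL1B and IL2RA in every MOLM-13 array. IL12RB2, the second chain of the IL-12 receptor, had the largest fall in MOLM-13 cells, by 4.17 ± 0.27 (adjusted p = 1.21e-10), from 7.79, 7.88 and 8.14 to 3.67, 2.83 and 4.79. IL23R, which pairs with IL12RB1 to bind IL-23, fell by 3.49 ± 0.10 (1e-15), from 5.64, 5.86 and 6.05 to 2.19, 2.19 and 2.72, so its size is limited by the lowest value. IL23R reached 4 in the MOLM-13 vehicle arrays only, and IL12RB2 in these and in the treated array at 4.79. Both thus passed the filter through the group where they were high. Their tests are not independent of that filter. CCL28, a chemokine of mucosal tissue, fell by 2.47 ± 0.16 (1.82e-10), from 7.85, 7.94 and 7.89 to 6.09, 5.27 and 4.92, and CCL20 was not called (0.24 ± 0.13, 0.119). IL12RB1, the partner of both IL12RB2 and IL23R, rose in the same arrays. The SE and p-values of IL12RB2, IL23R and CCL28 rest on a variance pooled over all groups. It includes the MV4-11 arrays, which hardly vary near the lowest value, so it understates the spread between MOLM-13 cultures. The SD was 0.98 in treated and 0.18 in vehicle MOLM-13 arrays for IL12RB2, 0.31 and 0.20 for IL23R, and 0.60 and 0.045 for CCL28. A fit of the MOLM-13 arrays alone was not tested.

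The vehicle cultures of the lines also differed. On day 6, 38 of the 53 were called between them (63.8% of all genes), 19 higher in MOLM-13 (30.7%) and 19 higher in MV4-11 cells (33.0%). The difference, MOLM-13 minus MV4-11, was -2.02 ± 0.08 for CCR1, -1.57 ± 0.09 for CCR2, -1.72 ± 0.09 for IL1RAP, 2.04 ± 0.11 for LTB and 1.65 ± 0.23 for CCL5. TNF and CXCL8 did not pass the test there (-0.22 ± 0.21 and -0.19 ± 0.27). Between the vehicle arrays of days 2 and 6 in MV4-11 cells, 2 of the 53 were called, CCR1 (0.36 ± 0.08) and TNFSF13B (0.33 ± 0.07), against 1.12% of all genes.

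The 97 genes not tested include most of the secreted members: 27 of 33 chemokines and 33 of 41 interleukins and soluble inhibitors. CSF1, LIF, LTA, IL6, CCL22 and CCR7 were among them. The highest single values were 3.96 for CCL4, 3.85 for CXCL2 and 3.84 for IL2RB, just under the level of 4, and none of the 97 had an array at or above it.

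Genes of the same pathways outside the symbol rule were counted from lists chosen with earlier results of these data known. Of 14 tested receptors for colony-stimulating factors, growth factors and interferons, 4 rose and 2 fell on day 2, 6 rose and 4 fell on day 4, 7 rose and 6 fell on day 6, and 5 rose and 3 fell in MOLM-13 cells. The shares called were 42.9%, 71.4%, 92.9% and 57.1%, against 12.5%, 46.2%, 62.0% and 65.8% of all genes. CSF1R, the receptor for CSF1, rose by 1.90 ± 0.09 on day 6 in MV4-11 and by 1.41 ± 0.09 in MOLM-13 cells, and FLT3, a receptor of progenitors, fell by 1.27 ± 0.09 and 2.05 ± 0.09. Of 12 tested TNF receptors, 5 rose and 4 fell on day 6 in MV4-11 cells (75.0% called, against 62.0% of all genes), and 8 rose and 0 fell in MOLM-13 cells (66.7%, against 65.8%). TNFRSF1B, a receptor for TNF, rose in both, by 0.94 ± 0.07 and 0.72 ± 0.07, and FAS, a death receptor, fell by 2.40 ± 0.19 in MV4-11 cells. Among 5 tested receptors for other chemoattractants, GPR84 fell by 4.56 ± 0.26 on day 4 and 3.84 ± 0.26 on day 6, and CX3CR1, the fractalkine receptor of monocytes, rose by 0.84 ± 0.13 on day 6 and 1.03 ± 0.13 in MOLM-13 cells.

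Of 14 tested NF-kappaB subunits and inhibitors, 1 rose and 9 fell on day 4 in MV4-11 cells (71.4% called, against 46.2% of all genes), and 5 rose and 5 fell on day 6 (71.4%, against 62.0%). RELB, a subunit, fell by 2.70 ± 0.21 on day 4, and TNFAIP3, a feedback inhibitor, fell by 1.93 ± 0.12 on day 4 and by 1.32 ± 0.12 on day 6. Against the vehicle arrays of days 2 and 6, 4 of the 14 rose and 5 fell (64.3%, against 57.1%), RELB by 1.12 ± 0.19. In MOLM-13 cells 5 rose and 3 fell (57.1%, against 65.8%), with falls of RELA (1.05 ± 0.07) and NFKB1 (1.11 ± 0.12) and a rise of the inhibitor NFKBIA (0.81 ± 0.10). Of 16 tested signal transducers, 10 rose and 2 fell on day 6 in MV4-11 cells (75.0%, against 62.0%) and 6 rose and 2 fell in MOLM-13 cells (50.0%, against 65.8%), where TYK2, a kinase of the IL-12 and IL-10 receptors, rose by 1.05 ± 0.07. Of 11 inhibitors of cytokine signaling, 3 rose and 4 fell in MOLM-13 cells (63.6%, against 65.8%), among them SOCS2, which fell by 3.20 ± 0.05, and on day 6 in MV4-11 cells 3 rose and 2 fell (45.5%, against 62.0%).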

How the data were processed

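The deposited values are 1 intensity per probe set and array on a linear scale, made with GCRMA per the submitters' processing notes, a method that adjusts background by probe sequence, normalizes by quantiles and summarizes probe sets. Intensities ran from 4.55 to 71593, and log2 was taken with a pseudocount of 0. The lowest value made up 36.2% of all values. Probe sets with 1 gene symbol that reached a log2 of at least 4 in at least 3 of 24 arrays were kept, and for each gene only the probe set of highest mean level was used, leaving 10971 genes. IL9R enters by its passing probe set, although another of its probe sets has a higher mean.

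The 8 group means entered 1 linear model of all 24 arrays (limma 3.58.1, R 4.3.3), whose moderated two-sided p-values for each contrast were corrected across all genes with Benjamini-Hochberg. An exact test of 3 against 3 arrays cannot go below 0.1, so no single-gene permutation test was used. Arrays carry no read depth, and their number limits the precision. The members, lists, motifs and alternatives were chosen with earlier results of these data known. The genes given with array values are those called with a log2 change of at least 1 in size in any treatment comparison, plus the tested genes of a fixed panel of well-known cytokines and receptors. Lists of pathway genes are described by counts, with examples among those of lowest adjusted p. Sequences are from RefSeq, GRCh38.p14, matched by Entrez gene ID for 45 of the 53 genes, with the first window listed for each gene. The model fit was tested on simulated data. Alternatives were other filters, normalizations, probe sets, variance priors and sets of arrays, the replicate number as a block and, chosen after seeing the data, the 3' to 5' difference as a covariate. Tables and plots were made in Python 3.11.15 with pandas 2.3.3.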

Additional observations from a re-analysis of the deposited data

Results flagged for a closer look

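The changes below differed between days or between lines by at least 1 on the log2 scale, with limma's adjusted p for the difference itself under 0.05. Comparisons with a shared day share its arrays.

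From day 2 to day 4 in MV4-11 cells the treatment effect moved downward for IL31RA (-2.74), CCL2 (-2.68), TNF (-2.46), CCL5 (-2.42), CXCL8 (-2.01), IL1RN (-1.55), IL10RB-DT (-1.19) and IL17RA (-1.07), and upward for IL18BP (1.06). From day 4 to day 6 it moved upward for CXCL8 (3.39), CCL2 (2.29), IL31RA (1.28) and TNFSF10 (1.28). All 4 of these were among the genes whose day 4 vehicle arrays lay above the other vehicle arrays. So were all genes of the downward list from day 2 to day 4, apart from IL10RB-DT. The part of the day 4 vehicle arrays in these differences was not tested.

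Between day 2 and day 6 the effect was lower on day 6 for TNF (-2.64), CCL5 (-2.01) and IL31RA (-1.46). It was higher on day 6 for IL18BP (1.84), CXCL8 (1.37), IL18 (1.25), IL11RA (1.14), IL10RA (1.12) and CCR6 (1.05).

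On day 6 the effect was higher in MOLM-13 than in MV4-11 cells for TNF (4.22), IL31RA (2.74), IL1B (2.44), CXCL8 (2.42), CCL5 (2.12), IL1RN (2.00), IL17RA (1.88), IL2RA (1.45), LTB (1.06), TNFSF13 (1.06) and IL10RB-DT (1.05). It was lower in MOLM-13 cells for IL12RB2 (-4.18), IL23R (-3.49), IL18 (-2.89), CCL28 (-2.47), IL7R (-2.05), CCR6 (-1.49), IL11RA (-1.43) and IL18BP (-1.30). Of these, CCL28, IL12RB2 and IL23R were under 4 in every MV4-11 array and CCR6, IL1B and IL2RA in every MOLM-13 array, so their difference rests on 1 line. For CCL28, IL12RB2 and IL23R the pooled variance understates the spread between MOLM-13 cultures.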

How the results depend on the processing

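Over the alternatives to each value, 6785 values kept their direction and side of the threshold, 191 lost a call, 88 gained one and 27 reversed. Leaving out single arrays gave 13 to 16 genes called on day 2, 34 to 37 on day 4, 36 to 38 on day 6, 35 to 38 in MOLM-13 cells and 34 to 36 on day 4 against the other vehicle arrays. The falls of day 2 went from 4 to 2 genes without MV4-11 day 2 treated replicate 1. Over all genes the ranges were 909 to 981, 4453 to 4703, 6265 to 6581, 6647 to 7000 and 5556 to 6105, and the 909, against 1372 with all arrays, came without MV4-11 day 2 vehicle replicate 1. The members' medians ranged from 0.0423 to 0.116, -0.0377 to -0.0048, 0 to 0.1157, 0.344 to 0.3837 and 0.001 to 0.0103.

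With the 3' to 5' difference as a covariate, chosen after seeing the data, 27 of the 53 genes (18 higher, 9 lower) and 4339 of all genes were called in MOLM-13 cells, against 39 and 7214. Its members' median was 0.1533 with the mean of each gene's probe sets and 0.0000 with no filter on low values.

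Reversals came from other probe sets or the mean of probe sets, and the cause was not tested. Other probe sets gave, in MOLM-13 cells, -1.07 for CCR2, -0.39 and -0.84 for CXCR4, -0.35 for IL13RA1, -0.12 and -0.38 for IL1RN and -2.33 for IL6R. On day 6 in MV4-11 cells they gave -0.53 for CCR2, -0.064 for IL12RB1, -0.23, -1.02 and -0.49 for IL13RA1, -0.29 for IL6R and -0.091 for IL6ST. On day 2 IL18BP gave -0.057, and on day 4 against the other vehicle arrays IL12RB1 gave -0.082 and -0.013 and IL18BP -0.015. The mean of probe sets gave -0.14 for CXCR4 and -0.44 for IL6R in MOLM-13 cells and -0.15 for IL13RA1 on day 6. For the difference between days 2 and 6 it gave -0.47 for CCR2, -0.051 for CXCR4 and -0.72 for IL13RA1, for that between days 4 and 6 -0.61 for CXCR4 and -0.79 for IL13RA1, and for that between the lines 0.31 for IL1RAP.

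Arrays with the same replicate number did not deviate together (12 correlations of -0.261 to 0.096), so the numbers do not pair them. With the number as a replicate block, 17, 36, 37, 40 and 36 genes were called in the 5 comparisons. Signal near the lowest value limits what can be said of dim genes.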

Other observations

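A probe set listed for CCL3, CCL3L1 and CCL3L3 together was not tested, since it names several genes. These chemokines draw monocytes and T cells. Its log2 level on day 2 in MV4-11 cells was 3.98 ± 0.72 in treated and 6.00 ± 0.31 in vehicle arrays (SD, n = 3). On day 4 it was 3.26 ± 0.36 and 8.31 ± 0.17, and on day 6 it was 3.19 ± 0.03 and 6.94 ± 0.75. In MOLM-13 cells it was 5.71 ± 0.60 in treated and 7.81 ± 0.29 in vehicle arrays. The treated arrays lay under the vehicle arrays in each of the 4 comparisons, and which of the 3 genes was measured cannot be told.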
